A study of Mus musculus with 2 samples.

Results

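Gzmb-negative CD8 T cells of the J558 allograft were the cytotoxic-lineage T cells in which no transcript of granzyme B was counted. They were chosen by their own transcript counts. A barcode had to hold over 2000 genes and under 15% mitochondrial UMIs. It also had to hold at least 2 UMIs of Cd3d, Cd3e and Cd3g together, at least 2 of Cd8a and Cd8b1 together, and none of Cd4 or Gzmb. Fewer than 4 UMIs of Mki67 and Top2a, at most 2 of Csf1r, C1qa, C1qb and C1qc and fewer than 3 of Trap1a, a gene of the J558 tumour cells, were allowed. A UMI (unique molecular identifier) stands for 1 captured transcript. In all, 92 of 6929 barcodes that passed the gene and mitochondrial limits were members, 91 of 3488 in the TAK-931 library and 1 of 3441 in the vehicle library.

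J558 is a plasmacytoma line of BALB/c mice that grows as a tumour under the skin of animals of that strain. Both libraries came from J558 allografts of female BALB/c mice taken on day 6. The treated mice received 60 mg/kg TAK-931, an inhibitor of the replication kinase CDC7, by mouth once a day for 6 days, and the control mice received 0.5% methylcellulose as vehicle. By the study's account each library came from 1 allograft, picked as a representative of its treatment. There was 1 library per treatment, each of whole dissociated tumour with no sorting step named, so no test between treatments was possible and no p-value is given. All intervals are 95% intervals of counting error alone and do not cover differences between mice. The sample labels call the cells B lymphocytes, which is the J558 line itself, and the T cells are those of the host animal.

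CD8 T cells kill target cells by releasing perforin and granzymes. Naive and memory cells hold little of these proteins and keep TCF-1 (encoded by Tcf7), LEF-1 and the lymph node homing receptor CCR7, and a TCF-1-positive pool that also carries PD-1 maintains the T cell response inside chronically inflamed tissue and tumours. Cells that carry granzyme K with Eomes and CCL5 but little granzyme B are known from tumours and from aged tissue.

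The members of the TAK-931 library held 935198 UMIs in all. A member had between 6073 and 28481 UMIs with a median of 9342, and a median of 2478 genes. The same limits with 1 or more Gzmb UMIs in place of 0 left 167 cells with a median of 11616 UMIs. These Gzmb-positive cells were the nearest comparison set. Members thus made up 35.3% (exact Clopper-Pearson interval 29.4 to 41.4) of the 258 CD8 T cells of the TAK-931 library. Of 4 CD8 T cells in the vehicle library 1 was a member.

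Depth moved with the choice of members. Among the CD8 T cells of the TAK-931 library cut by UMIs into 3 sets of equal size, 45.3% of the shallowest, 41.9% of the middle and 18.6% of the deepest set had no Gzmb UMI. A count of 0 in a member of median depth still allows 321 CPM, the UMIs of a gene scaled to 1000000 UMIs of the cell or set. Over the 167 Gzmb-positive cells, 54 (32.3%) lay below that level. Gzmb in all 167 ran from 57.6 to 5491 CPM around a median of 729. Just outside the limit stood 19 cells with 1 Gzmb UMI and 15 with 2. With every cell thinned to 4000 UMIs, 117 of 258 cells (45.3%, 39.2 to 51.6) had no Gzmb UMI, and 26 of these had held one before. "Gzmb-negative" therefore meant low or undetected Gzmb, not its absence. Of the other limits, that on Mki67 and Top2a left 315 of 568 cells and that on Csf1r and the C1q genes 258 of 315, before Gzmb was applied. Just inside the limits stood 1 member with exactly 2 Cd3 UMIs and 2 members with exactly 2 Cd8 UMIs, and the member with the fewest genes had 2008.

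**Figure D1:**
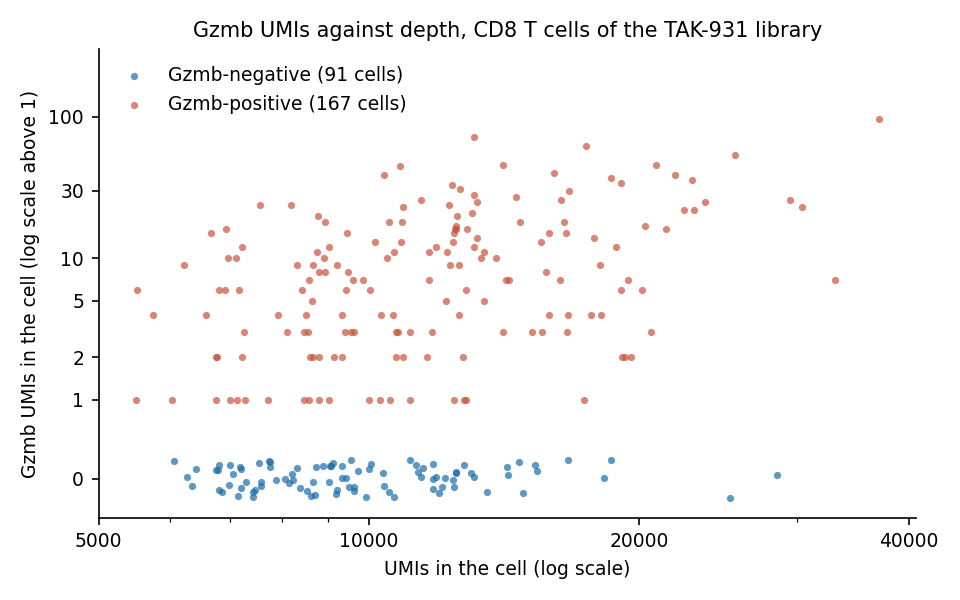
Gzmb UMIs per cell (vertical axis, log scale above 1, linear below) against all UMIs of the cell (horizontal axis, log scale) for 258 CD8 T cells of the TAK-931 library, with small random vertical offsets for cells at 0. The 91 Gzmb-negative cells span 6073 to 28481 UMIs with a median of 9342, and 19 Gzmb-positive cells sit at 1 Gzmb UMI.

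The cell type label was checked against Cd8a, Cd8b1, Ms4a4b, Tcf7 and Gzmk. Cd8b1, the CD8 beta chain, was found in all 91 members of the TAK-931 library, which the choice by Cd8 UMIs favours. Cd8a was found in 91.2% of them. Ms4a4b, a membrane protein of CD8 and naive T cells that the rule did not use, was found in 98.9% at 1880 CPM. Tcf7 and Gzmk marked only some cells, 39 members (42.9%) for Tcf7 and 45 members (49.5%) for Gzmk. Cd8a and Cd8b1 were fixed by the choice of members, and Ms4a4b was also found in 10 of 11 CD4 T cells of the library, at 465 CPM, so the CD8 name rests on the rule itself. Neither Tcf7 nor Gzmk described the members as a whole.

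Markers of other cells were few but not evenly spread. The natural killer cell genes Ncr1, Klrb1c, Klra4 and Klra8, the gamma delta T cell gene Trdc, the innate-like T cell regulator Zbtb16, and Foxp3 and Cd40lg of CD4 T cells were all at 0 UMIs. The other genes of these lists were not. The natural killer list summed to 530 CPM over Eomes, Fcer1g, Tyrobp and Klre1, with 3 or more UMIs in 46 members, and Eomes, which CD8 T cells also carry, gave 176 of its 496 UMIs. Of the Fcer1g UMIs 52.3% lay in 1 cell. Ikzf2, a regulator found in regulatory and in activated T cells, held 330 of the 377 UMIs of the CD4 and regulatory list and was found in 71.4% of members and 72.5% of Gzmb-positive cells. The gamma delta and innate-like list held 15 UMIs, 12 of them of Tcrg-C2. The part of such cells in the results was not tested. Macrophage and tumour cell transcripts stood in the members at a median of 3.09% of their level in the whole library, over 15 marker genes. Endothelial markers stood at 72.7 CPM in the members and 15.6 CPM in Gzmb-positive cells, with 3 or more such UMIs in 5 members. Of the fibroblast UMIs of the Gzmb-positive cells, 98.5% lay in 1 cell. MHC class II transcripts, which activated antigen-presenting cells carry in number, were concentrated in 5 members with 87 to 972 UMIs of Cd74, H2-Aa, H2-Ab1 and H2-Eb1 together. These 5 cells held 91.3% of the members' MHC class II UMIs, and no other member held more than 8. They had a median of 18265 UMIs against 9210 in the other 86 members, and 2 of them held 20 and 56 Ccr7 UMIs. They are called mixed cells below, because they carried transcripts of antigen-presenting cells beside those of T cells, and values of leading genes and of the natural killer, endothelial, macrophage and plasma cell tumour lists are given without them too, with 20 UMIs of these genes, or of 3 collagen genes, as the limit (86 members and 164 Gzmb-positive cells remained). Without mixed cells the natural killer list stood at 272 CPM in the members in place of 530, against 292 CPM in Gzmb-positive cells, and 15 Fcer1g and 17 Tyrobp UMIs were left. The endothelial list then stood at 40.4 against 9.31 CPM and the monocyte and macrophage list at 327 against 284 CPM. The B and plasma cell tumour list, which the limit for mixed cells did not use, still stood at 436 against 273 CPM. Over all members 1 cell held 17.4% of the 414 UMIs of that list, and the highest cell stood at 7705 CPM. The part of mixed cells in other values was not tested. No doublet caller was run. The libraries shared 8 barcodes, none of them a member's.

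The naive genes came first. Ccr7, the receptor that guides T cells into lymph nodes, was found in 38 members (41.8%) at 240 CPM (209 to 273), and 1 mixed cell held 25% of its UMIs. Without the mixed cells it stood at 170 CPM, still above the 6.41 CPM of 1160 macrophages of the same library. Tcf7 was found in 39 members at 112 CPM (91.8 to 136), with 67.3 to 823 CPM in the cells that had it. Macrophages had 0.37 CPM of Tcf7. Ccr7 and Tcf7 thus stood far above the macrophage level and were each found in a minority of the members.

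Lef1, the partner of TCF-1, was found in 43 members (47.3%), Il7r, the receptor of the survival cytokine IL-7, in 28 (30.8%) and Klf2, a regulator of T cell trafficking, in 52 (57.1%). S1pr1, the receptor that lets T cells leave tissue for lymph and blood, was found in 21 members (23.1%). Macrophages had 152 CPM of Klf2 and 34.8 CPM of Il7r, against 227 and 97.3 CPM in the members. Dapl1, a gene of naive and stem-like CD8 T cells, was found in 13 members at 31.0 CPM (20.8 to 44.5) and in 1 of 167 Gzmb-positive cells. Satb1, a chromatin organiser of T cells, was common, in 73 members (80.2%). The naive and homing genes thus ranged from 13 to 73 of 91 members, and none was present in all of them.

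**Figure D2:**
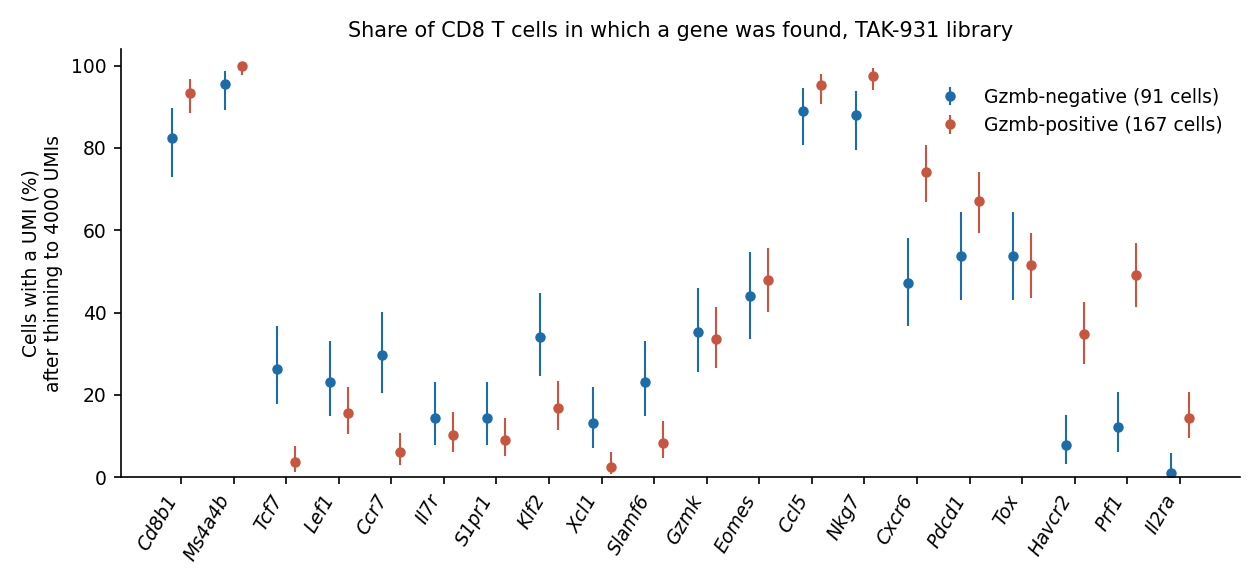
Percent of cells with at least 1 UMI of each gene after thinning every cell to 4000 UMIs, for 91 Gzmb-negative and 167 Gzmb-positive CD8 T cells of the TAK-931 library; bars are exact Clopper-Pearson intervals of counting error. Tcf7 was found in 26.4% of Gzmb-negative and 3.59% of Gzmb-positive cells, whereas Gzmk was found in 35.2% and 33.5%.

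Compared with the Gzmb-positive CD8 T cells, the members had more of the naive and homing genes and less of the effector genes. Since the rule split the cells by Gzmb, these differences describe the split and were not tested. Of 7860 genes with at least 20 UMIs in both sets together, 284 (3.61%) were 2-fold or more higher in the members and 538 (6.84%) were 2-fold or more lower. The log2 ratio's interval lay above 0 for 241 of the former and below 0 for 350 of the latter. Of 14 naive and homing genes, 10 were 2-fold or more higher and 1 lower, with a list median log2 ratio of 1.29 against -0.06 over all 7860 genes. The one lower gene was Igfbp4, with 1 UMI in the members and 39 in only 2 Gzmb-positive cells. Cell by cell, members had up to 823 CPM of Tcf7 and Gzmb-positive cells up to 1090, so the sets overlapped. Without thinning, Tcf7 was found in 42.9% of members and 8.38% of Gzmb-positive cells, and the cells that had it held a median of 202 and 137 CPM.

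The 10 highest log2 ratios are described next, for genes found in 10% of the members or more and on 50 UMIs or more. Dapl1, at 4.45 on 29 UMIs, fell short of that minimum. Xcl1, the chemokine that attracts XCR1-positive dendritic cells, led them. It stood at 137 CPM in members and 16.6 CPM in Gzmb-positive cells, a log2 ratio of 3.05 (2.50 to 3.63), and was found in 17 members, with 22.7% of its UMIs in 1 of them. Tcf7 followed at 112 against 13.7 CPM, a log2 ratio of 3.03 (2.43 to 3.68). Ccr7 was next at a log2 ratio of 2.87 (2.48 to 3.29), and 2.44 without mixed cells. Tbc1d4, a Rab GTPase regulator of vesicle traffic, was higher by a log2 ratio of 2.84 and by 2.19 without mixed cells. Rgs10, a regulator of G protein signalling, and Ppp2r3a, a subunit of the phosphatase PP2A, had log2 ratios of 2.60 and 2.43, and 2.43 and 2.53 without mixed cells. All 6 of these kept a difference of over 4-fold without the mixed cells. The other 4 named genes did not: H2-Aa went from 2.53 to 0.11, H2-Eb1 from 2.52 to 0.31, Cd74 from 2.31 to 0.05 and Wfdc17 from 2.49 to 0.09. The higher MHC class II in the members thus rested on 5 cells.

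On the other side stood the granzymes next to Gzmb. Gzmd was at 4.28 CPM in members and 554 CPM in Gzmb-positive cells, a log2 ratio of -7.02 (-8.90 to -5.66). Gzmf and Gzme stood at 8.55 and 14.97 CPM against 575 and 582 CPM. Gzmc had 1 UMI in the members against 120. Gzmg had none in the members and 89 in the Gzmb-positive cells, at least 13.1-fold lower when 3 UMIs over the members are allowed for. Gzmc, Gzmd, Gzme, Gzmf and Gzmg are close copies of one another, so reads could be split between them, but all 5 were lower where Gzmb was missing. Granzyme A (Gzma) was lower too, with 26 UMIs in 10 members, 57.7% of them in 1 cell, against 504 UMIs in 36 Gzmb-positive cells. Its 27.8 CPM in the members lay next to the 27.9 CPM of macrophages.

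Among the other lower genes were Filip1, Ccl9, Spp1 and Il2ra. Il2ra, the alpha chain of the high-affinity IL-2 receptor, was found in 3 members and 45 Gzmb-positive cells, at 7.49 against 68.1 CPM. Filip1, a filamin-binding protein, was found in 1 member and 29.3% of Gzmb-positive cells. Spp1, the secreted protein osteopontin, stood at 13.9 against 150 CPM and Ccl9, a chemokine, at 3.21 against 46.4 CPM. Each of these 4 genes differed by over 8-fold.

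**Figure D3:**
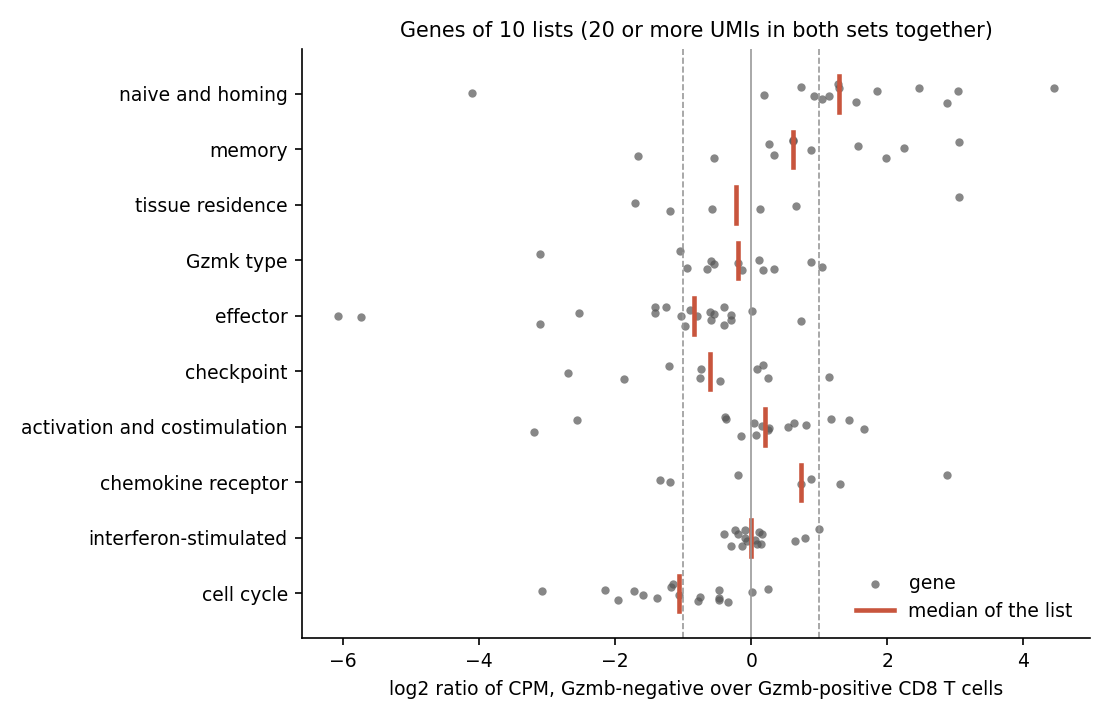
Log2 ratio of CPM of summed UMIs, Gzmb-negative over Gzmb-positive CD8 T cells of the TAK-931 library (horizontal axis), for each gene of 10 lists with at least 20 UMIs in both sets together; vertical bars are list medians and dashed lines mark a 2-fold difference. The naive and homing median lies at 1.29, the effector median at -0.85 and the interferon-stimulated median at -0.0029.

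Of 20 effector genes measured, 8 were 2-fold or more lower in the members and none higher, with a median log2 ratio of -0.85. Prf1, perforin, was found in 24 members at 48.1 CPM and in 126 Gzmb-positive cells at 278 CPM. Ifng was at 37.4 against 99.4 CPM. Members were nevertheless not free of effector transcripts. Ccl5, a chemokine of activated T cells, was found in 84 members (92.3%), with 4270 CPM in the median member and 48999.5 CPM in the highest. Its level was 5584 CPM in the sum, against 10712 CPM in Gzmb-positive cells. Nkg7, a protein of cytotoxic granules, was found in 88 members (96.7%) at 1007 CPM. The macrophages of the library had 6.92 CPM of Nkg7, far below the members. Macrophages had 784 CPM of Ccl5.

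The memory list was mixed. Of 11 genes measured, 4 were 2-fold or more higher in the members, 1 was lower and the median log2 ratio was 0.62. Slamf6, a surface receptor of stem-like T cells, was found in 38 members (41.8%) and 32 Gzmb-positive cells (19.2%), a log2 ratio of 1.58 (1.11 to 2.05). Bcl2, a survival factor, and Id3, a transcriptional regulator of memory cells, stood higher on 21 and 14 UMIs. Xcl1 was the remaining one, and it was also on the tissue residence list. Ly6c2, an activation marker of CD8 T cells, was lower at 81.3 against 258 CPM. Cd44, an antigen-experience marker, was found in 61 members (67.0%) and Il2rb, a receptor chain for IL-2 and IL-15, in 83 (91.2%). Macrophages had 505 CPM of Ly6c2 and 348 CPM of Cd44, so these genes are not particular to T cells. Of 6 tissue residence genes measured 1 was higher and 2 were lower. Itgae, an integrin of resident T cells, had 2 UMIs and Zfp683, a regulator of residence, had none, with an exact Poisson upper limit of 3.94 CPM.

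Some checkpoint genes were present in most members and others in few. Pdcd1, which encodes PD-1, was found in 67 members (73.6%) at 191 CPM, against 152 Gzmb-positive cells at 320 CPM. Tox, a regulator of exhausted T cells, was found in 73 members (80.2%) and 139 Gzmb-positive cells (83.2%), with a log2 ratio of 0.09 (-0.16 to 0.33). Of 10 checkpoint genes measured, 3 were 2-fold or more lower, Havcr2 (TIM-3) at 28.9 against 187 CPM, Entpd1 (CD39) at 55.6 against 204 CPM and Lag3 at 70.6 against 164 CPM. Lag3 was found in 35 members and Havcr2 in 14. Ctla4, an inhibitory receptor, was found in 60 members (65.9%). Tigit alone was 2-fold or more higher, 37.4 against 17.04 CPM. The members thus had lower Havcr2 and Entpd1, while their Tox differed by less than the counting error.

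Interferon-stimulated genes differed little. Of 16 measured, 1 (Rtp4) was 2-fold or more higher, none was lower and the median log2 ratio was -0.0029. Several genes stand on more than 1 list, among them Xcl1, Ccr7, Cxcr6, Cxcr3, Cx3cr1, Eomes, Gzma, Cst7 and Nkg7, and Mcm2, Mcm4 and Mcm6 on both the cell cycle and the CDC7 list, so the lists are not independent. Of 16 activation genes, 3 were higher (Myc, Fosb and Nr4a1) and 2 lower (Il2ra and Irf8). Cxcr4, a chemokine receptor, was found in 73 members at 201 against 81.4 CPM, and Ccr2, a receptor for inflamed sites, in 10 members at 40.6 against 103 CPM. Of 17 cell cycle genes, 9 were 2-fold or more lower, with a median log2 ratio of -1.07, although the rule had already capped Mki67 and Top2a in both sets. Of the target kinase of TAK-931 and its substrates, Cdc7 had 2 UMIs in the members and 13 in the Gzmb-positive cells, and none of 4 other genes differed by 2-fold.

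Members were not of one kind. The number of 4 naive-type genes (Ccr7, Lef1, Tcf7 and Il7r) found per cell was used to describe how they varied. None of the 4 was found in 18 members, 1 or 2 were found in 51 members, and 3 or 4 in 22. Among Gzmb-positive cells 91 of 167 (54.5%) had none. With each cell thinned to 4000 UMIs, 10 members (10.99%, 5.40 to 19.3) and 2 Gzmb-positive cells (1.20%, 0.145 to 4.26) had 3 or 4. The median depth was 8270 UMIs in members with none, 9111 with 1 or 2 and 10338 with 3 or 4.

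Genes that did not enter this count differed along it. Mixed cells were kept in the sets of this count. Ccl5 stood at 10119 CPM in members with none of the 4 genes, 6212 CPM with 1 or 2 and 1621 CPM with 3 or 4, and its median cell at 6932, 4750.0 and 669 CPM. The range over cells overlapped, reaching 11237 CPM among members with 3 or 4. Cxcr6, the receptor of tissue effector T cells for CXCL16, stood at 521, 237 and 19.2 CPM, and was found in 17 of 18, 28 of 51 and 2 of 22 members. Id2, a regulator of effector cells, stood at 1158, 685 and 254 CPM and Nkg7 at 1499, 1105 and 519 CPM. These 4 genes were thus highest where the naive-type genes were missing.

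Xcl1 went the other way, at 0, 63.5 and 365 CPM, the last being 306 CPM without mixed cells. S1pr1 was at 0, 40.4 and 119 CPM, and Klf2 at 70.8, 169 and 434 CPM. Slamf6 was found in 6 of 18, 16 of 51 and 16 of 22 members. Bach2, a repressor of effector genes, stood at 25.7, 9.63 and 115 CPM, so that it was highest in the last set. Pdcd1 was found in 77.8%, 76.5% and 63.6% of members along these sets, at 199, 206 and 158 CPM. Tox was found in 88.9%, 78.4% and 77.3%, at 283, 185 and 246 CPM, so its share was lower and its level followed no order along the sets. Most members with 3 or 4 naive-type genes thus also held Pdcd1 UMIs.

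**Figure D4:**
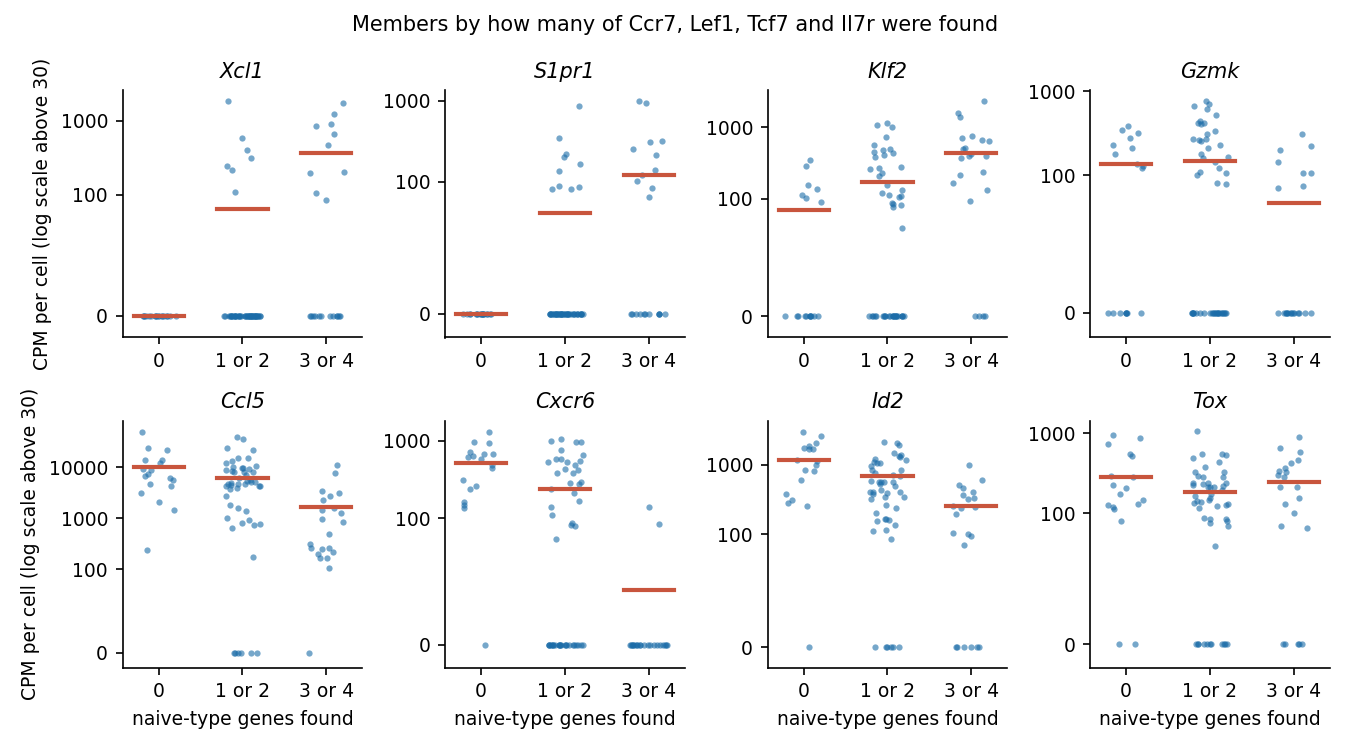
CPM per member (points; vertical axis, log scale above 30) of 8 genes in the TAK-931 library by how many of Ccr7, Lef1, Tcf7 and Il7r were found, 0 (18 cells), 1 or 2 (51 cells) or 3 or 4 (22 cells); red bars are CPM of summed UMIs. Ccl5, Cxcr6 and Id2 were highest at 0 genes, Xcl1, S1pr1 and Klf2 at 3 or 4, and the summed CPM of Tox followed no order. Mixed cells are included.

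A comparison over all genes, added after the values had been seen and without mixed cells, set 21 members with 3 or 4 naive-type genes against 18 with none. Of 2555 genes, 190 (7.44%) were 2-fold or more higher and 199 (7.79%) lower, with intervals that left out 0 for 121 and 172 of them. Of the 7 other naive and homing genes counted, all were 2-fold or more higher, and of 12 effector genes 8 were 2-fold or more lower. The B and plasma cell tumour list stood at 746 against 264 CPM. The part of tumour cell transcripts in this comparison was not tested. Xcl1 and S1pr1 were at least 15.9-fold and 6.93-fold higher, against 3 UMIs allowed over the 18 members at 0, and 1 cell held 40.8% of the Xcl1 UMIs. Tbc1d4 had 35 UMIs against 1, although 40% of them lay in 1 cell, and Kcnn4, a potassium channel of activated T cells, had 32 against 1. Asap1, a regulator of the small GTPase ARF, Rgs10, Traf1, an adaptor of TNF receptors, and Ptprk, a receptor tyrosine phosphatase, were the other leading genes, with log2 ratios from 2.79 to 3.09. Asap1 did not keep its direction when the 4 genes were counted after thinning, at a log2 ratio of -0.081. On the lower side stood Cxcr6 (-6.92), Siva1, Serpinb9, Hist1h2ap (62.2% of UMIs in 1 cell), Ccl5, Hilpda, Rgs1 and S100a6, the last at -2.27. Serpinb9, the inhibitor that protects cells from their own granzyme B, stood at 51.8 against 399 CPM.

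Pairs of genes were also counted within single members. Cxcr6 was found in 7 of 39 members with Tcf7 (17.9%) and in 40 of 52 without (76.9%), at a median depth of 9344 and 9270 UMIs. None of the 13 members with Dapl1 had Cxcr6, and a count of 0 in 13 cells allows a share of up to 23.1% of cells with a Cxcr6 UMI, which does not limit Cxcr6 below the level that 1 UMI stands for. Of the 13, 11 had Slamf6 and 12 had Tcf7. Ccr7 and Tcf7 did not mark the same cells throughout: 23 members had both, 16 only Tcf7 and 15 only Ccr7.

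Gzmk, granzyme K, was found in 45 members, with 70.2 to 761 CPM in the cells that had it, and stood at 117 CPM (95.7 to 141) over the members. In Gzmb-positive cells it was found in 94 (56.3%) at 129 CPM, a log2 ratio of -0.14 (-0.48 to 0.18). Macrophages of the library had 0.23 CPM. After thinning it was found in 35.2% and 33.5% of cells, so Gzmk differed between the sets by less than the counting error. Within the members Gzmk was lowest where naive-type genes were most frequent, at 135, 146 and 46.1 CPM with none, 1 or 2 and 3 or 4 of the 4 genes, and was found in 10 of 18, 27 of 51 and 8 of 22 cells. It was found in 32.1% of members with Il7r and 57.1% of those without. By Tcf7 alone the shares were close, 19 of 39 members with Tcf7 (48.7%) and 26 of 52 without. In level, Tcf7 and Ccr7 were lower in members with Gzmk when mixed cells were left out, by log2 ratios of -0.71 (-1.33 to -0.12) and -0.81 (-1.33 to -0.30). With mixed cells kept, the log2 ratio of Ccr7 was 0.012, so its difference appeared only without them.

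Of the other genes of the Gzmk type, Eomes, the transcription factor of this state, was found in 60 members (65.9%) at 188 CPM. It was present in 34 of 45 members with Gzmk and 26 of 46 without. Cxcr3, a receptor for interferon-induced chemokines, was present in 19 and 10 of them. When all genes were compared between members with and without Gzmk, at 9342 and 9359 median UMIs, 148 of 4795 genes (3.09%) were 2-fold or more higher and 190 (3.96%) lower. Of 10 other Gzmk-type genes measured, 3 were 2-fold or more higher and 1 lower, with a median log2 ratio of 0.55. Without mixed cells Ccl5 stood at 8074 CPM in members with Gzmk and 3372 CPM in those without. Ccl5 thus accompanied Gzmk, while Cxcr6 did not, at 240 against 242 CPM.

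The named higher genes of the Gzmk comparison were Hspa1a, Ctla2a, Ctla2b, Stmn1, Esco1, Slc4a7, Hist1h2ap and Igf2r. Ctla2a, an inhibitor of cathepsin-type proteases, led in UMIs, at 666 against 245 CPM, a log2 ratio of 1.44 (1.13 to 1.76). Ctla2b is its close copy. Esco1, a cohesin acetyltransferase, was found in 73.3% of members with Gzmk and 37.0% of those without. The other log2 ratios ran from 1.16 for Igf2r to 1.46 for Hspa1a, a heat shock protein. A single cell held 39.5% of the higher set's Hspa1a UMIs, and the ratio was 2.04 without mixed cells. For Hist1h2ap, a histone gene with close copies, 1 cell held 50% of the UMIs of that set. Of the named lower genes, Cd72, Aif1, Lst1, Grn, Ctsh, Ms4a6d and Basp1, all genes of B cells or myeloid cells, had 59.3 to 82.4% of their UMIs in 1 cell. Without mixed cells each of these 7 was left with at most 8 UMIs in either set. Creb3l2, a transcription factor of the secretory pathway, alone did not rest on them, with 5 UMIs against 46 without mixed cells, a log2 ratio of -3.20 (-4.89 to -1.87).

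T cell receptor segments were counted where they were named in the files. A Trbv segment was found in 29 members, of 11 kinds, and Trbv13-1 was the most frequent, in 9 members. Trbv20 followed in 7 and Trbv13-2 in 6. A Trav segment was found in 22 members, of 16 kinds. Among Gzmb-positive cells 75 held a Trbv segment, of 12 kinds, with Trbv20 in 25, Trbv13-1 in 19 and Trbv13-2 in 16, so the same 3 segments were the most frequent in both sets. The 3' libraries seldom reach these segments, and near-identical segments may share reads, so no clone could be assigned.

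The nearest other T cells were CD4 T cells without Foxp3 or Gzmb, of which the TAK-931 library held only 11. Of 5042 genes, 1044 (20.7%) were 2-fold or more higher in the members and 340 (6.74%) lower, and intervals left out 0 for 194 and 178 of them. All of 14 effector genes but 1 were 2-fold or more higher in the members, with a median log2 ratio of 2.09, and the interval lay above 0 for 9 of the 14. The named higher genes were Nrn1, Klrc2, Klrc1, Klrd1 and Xcl1. Klrc1, Klrc2 and Klrd1 encode the CD94 and NKG2 receptors of cytotoxic lymphocytes, and were found in 67.0%, 76.9% and 70.3% of members. Klrc1 and Klrc2 are close copies that may share reads. Klrc1, Klrc2 and Nrn1, a gene of neurons that T cells also carry, had no UMI in the 11 CD4 T cells. The named lower genes, Col1a1, Fos, Egr1, Gadd45b and Dbi, had 70.3 to 98.9% of their UMIs in 1 CD4 T cell, and Fos and Egr1 were higher in the members when mixed cells were left out of both sets.

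Between treatments, members made up 2.61% (2.11 to 3.19) of kept barcodes in the TAK-931 library and 0.0291% (0.000736 to 0.162) in the vehicle library, a difference of 2.58 percentage points (Newcombe interval 2.08 to 3.16). More members and fewer tumour cells cannot be told apart in such a share. The vehicle library had 2904 tumour cells and the TAK-931 library 26 when at least 10 Trap1a UMIs were asked for. The 1 vehicle member had 11040 UMIs. It held 10 UMIs of Cd8b1, 83 of Ccl5, 30 of Nkg7, 6 of Cxcr6 and 1 of Gzmk. It had none of Tcf7, Ccr7, Lef1 or Il7r, and 0 UMIs at that depth have an exact Poisson upper limit of 334 CPM. With 1 cell, no comparison of the members' genes between treatments was made.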

How the data were processed

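Single-cell 3' RNA libraries of 2 J558 allografts, 1 per treatment, were analysed. Per the labels, the authors used Cell Ranger 6.0.0 and the mouse build mm10 (the study's methods name hg38). The deposited values are raw UMI counts per gene and barcode for 32285 genes, 77369283 UMIs in the TAK-931 library and 144767193 in the vehicle library. The gene and mitochondrial limits follow the study's methods. Cells were chosen by UMI counts as described, and the members and all gene lists were chosen with earlier results of these data known. Summed UMIs were divided by the set's total (CPM). Log2 ratios had exact conditional binomial intervals, shares exact Clopper-Pearson or Newcombe intervals, and levels exact Poisson intervals, all covering counting error only. Where a sum was 0, 0.5 UMIs were added. Genes were counted from 20 UMIs in both sums together, and named (10, 8 or 5 each way) by log2 ratio among those with at least 50 UMIs (30 within members) and 10% of cells in the higher set. Ribosomal, mitochondrial, immunoglobulin, receptor-segment, predicted and rule genes were not named, and some genes are not reported here. Shares of cells are unthinned unless thinning is named, so they also carry differences in depth between sets. Thinning drew 4000 UMIs per cell without replacement where no other number is given. No differential test was run, since cells of 1 library are not replicates. The ratio calculation was run on counts simulated as independent draws from summed UMIs. That simulation held no clumping of UMIs in single cells, so it does not cover genes with many UMIs in 1 cell. No paired analysis was possible because each treatment had 1 library. Tools were scipy 1.17.1, pandas 2.3.3 and numpy 2.4.6 under Python 3.11.15, with matplotlib 3.10.9 for plots. Alternatives were other limits on genes, mitochondrial UMIs, Gzmb, Cd3 and Cd8, other gene minimums, scaling, free RNA subtraction and removal of mixed or large cells.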

Additional observations from a re-analysis of the deposited data

Results flagged for a closer look

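Further cells of this kind lay among barcodes of more than 500 genes that did not exceed 2000, the minimum in the study's filter. In the TAK-931 library 60 of 1147 such barcodes (5.23%, 4.02 to 6.68) passed every other limit, against 3 of 722 (0.416%, 0.0858 to 1.21) in the vehicle library, a difference of 4.82 percentage points (Newcombe interval 3.42 to 6.29). They are given here because they are data outside the main measurement with a share above that of the vehicle library. As for the main share, more such cells and fewer tumour cells cannot be told apart, with 1 library per treatment. Their median depth was 5124 UMIs in the TAK-931 library. Ccl5 stood at 17695 CPM in them against 5584 CPM in the members, and after thinning to 1000 UMIs it was found in 98.3% (91.1 to 99.96) against 71.4% (61.0 to 80.4). Thinned in the same way, Tcf7 was found in 8.33% against 8.79%, Ccr7 in 6.67% against 8.79% and Gzmk in 11.7% against 10.99%, all within counting error. In level, Tcf7 stood at 87.0 against 112 CPM, Gzmk at 205 against 117 CPM and Ccr7 at 80.1 against 240 CPM, or 170 CPM in the members without mixed cells. The part of cell quality in these differences was not tested.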

How the results depend on the processing

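Of 286 recomputed main values 245 stayed within the set limits, 41 moved and none reversed; of 693 for single named genes 599 stayed, 86 moved and 8 reversed, and 58 of 62 named genes kept their sign under every setting run. The median log2 ratio over Gzmb-positive cells stayed between 1.11 and 1.61 for the naive and homing list and between -0.994 and -0.610 for the effector list. With over 1000 genes there were 149 members in the TAK-931 library and 3 in the vehicle library (a difference of 3.44 points, Ccr7 at 203 CPM), and with over 500 genes 151 and 4 (Ccr7 at 202 CPM). With at most 1 Gzmb UMI members made up 42.6% of the CD8 T cells, with Gzmk at 145 CPM. With Gzmb at 0 after thinning they made up 45.3% (3.33 points, Tcf7 at 90.4 and Ccr7 at 196 CPM, 343 lower genes).

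Without cells holding 3 or more UMIs of other lineages the difference was 1.98 points, Gzmk 142 CPM and Ccr7 151 CPM, 181 genes were higher than in Gzmb-positive cells and 122 lower in the Gzmk comparison, and H2-Aa reversed to -0.14. Ccr7 was 168 CPM without cells over 2 times the median depth and 170 CPM without mixed cells, an alternative chosen after seeing the data, which left 121 lower genes in the Gzmk comparison. Against CD4 T cells Fos reversed to 1.47 and Egr1 to 2.92 with mitochondrial UMIs under 10%, to 0.27 and 3.75 without cells of 3 or more UMIs of other lineages, and to 0.59 and 2.85 without mixed cells. Thinned to 2000 UMIs, Tcf7 was found in 15.4% and Ccr7 in 18.7% of members; without thinning Gzmk was found in 49.5%, Tcf7 in 42.9% and Ccr7 in 41.8%.

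Counts of genes past 2-fold followed the minimum of UMIs. From 50 UMIs, 106 were higher and 202 lower than in Gzmb-positive cells, 30 and 41 in the Gzmk comparison and 330 and 112 against CD4 T cells. From 1 UMI these were 2153 and 1994, 2165 and 2480, and 1664 and 3545. With free RNA subtracted 647 were higher than in CD4 T cells. With the 4 naive-type genes counted after thinning, also chosen after seeing the data, 402 genes were lower in 10 members with 3 or 4 than in 38 with none, and Asap1 reversed to -0.081. No paired analysis was possible because each treatment had 1 library and no test was run. With 1 library per treatment, differences between animals were not measured, and a gene below about 1 UMI per cell was missed in many cells that may hold it.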
